A study of Caenorhabditis elegans with 6 samples.

Results

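The genes described here encode the enzymes of glycolysis and of the tricarboxylic acid cycle in *C. elegans*. They were chosen by name from a fixed list of 44 names that stand for 43 genes, since *icl-1* and *gei-7* are names of the same gene. Of the 28641 genes in the expression table, 40 carried a name of the list. They comprised 14 glycolysis genes, 3 genes by which pyruvate enters the cycle, 22 cycle genes and 1 gene of the glyoxylate step. No row was named *hxk-1*, *hxk-2* or *hxk-3*, and the rows that hold these hexokinase genes under their sequence names are described apart from the 40.

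Gene expression was measured by RNA sequencing of whole worms at the L4 stage. WT worms were Bristol N2, and *alh-4(-)* worms carried the *alh-4* deletion *hj221* in the Bristol N2 background, so that the mutant is represented by a single allele. Both genotypes were fed *E. coli* OP50, grown at 20 °C and left untreated, and each had 3 biological replicates with 1 library per replicate. The question of the comparison is which genes are expressed differently when ALH-4, an aldehyde dehydrogenase that turns fatty aldehydes into fatty acids, is missing.

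Glycolysis splits glucose into pyruvate in the cytosol, and most of its enzymes also run in reverse when glucose is made. Pyruvate enters the mitochondrion and becomes acetyl-CoA through the pyruvate dehydrogenase complex or oxaloacetate through pyruvate carboxylase, and the cycle then oxidizes acetyl-CoA from sugar and from fat alike. Nematodes, unlike mammals, also have the glyoxylate bypass, which skips the decarboxylating steps of the cycle and allows carbohydrate to be made from the acetyl-CoA of fatty acids.

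Values are FPKM, in which the fragments of a gene are divided by its exon length and by the mapped total. This scaling does not remove differences in RNA composition between libraries. The median FPKM over the 16225 genes whose mean FPKM was 1 or more ran from 13.8 in *alh-4(-)* replicate 1 to 21.2 in *alh-4(-)* replicate 2. In the 6 libraries the FPKM of all genes summed to between 3310620 and 3364265, and between 17623 and 22670 genes were above 0, with replicate 1 of each genotype the lowest of its genotype. The FPKM of *alh-4* was 326 ± 31.5 (SD, n = 3) in WT and 31.2 ± 5.71 (SD, n = 3) in *alh-4(-)* libraries. Markers of intestine, hypodermis, body wall muscle, pharynx, germline and sperm were all present, whereas the neuronal markers *unc-119* and *rgef-1* were below a mean FPKM of 1. Because whole worms were used, fewer cells of a type and less RNA per cell cannot be told apart.

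Transcripts of glycolysis and the cycle were abundant and differed little between the genotypes. The mean FPKM over the 6 libraries ran from 30.1 for *idhb-1* to 3445 for *icl-1*, with a median of 384 over the 40 genes, against a median of 18.8 over the 16225 genes whose mean FPKM was 1 or more. All 40 genes were among these 16225, which were compared with limma on the log2(FPKM + 1) scale. None of the 40 genes had a Benjamini-Hochberg adjusted p under 0.05 in limma, where 0.142% of all tested genes did, and the adjusted p was 1 for each of the 40. At an unadjusted limma p under 0.05 the count was also 0 of 40, against 4.97% of all tested genes. The 3 hexokinase rows are outside this count, and 1 of them, F14B4.2, had a limma p of 0.00956. No gene of the 40 had a fold change over 2 together with an unadjusted p under 0.05, against 2.92% of all tested genes. In 6 of the 40 genes (15%) the values of the WT and *alh-4(-)* libraries did not overlap, against 9.21% of all tested genes. Of these, *gpi-1*, *gpd-1* and *gpd-4* were higher in every *alh-4(-)* library, 3 of 40 against 5.97% of all tested genes, and *cts-1*, *idhb-1* and *sdhb-1* were lower in every *alh-4(-)* library, 3 of 40 against 3.25%.

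The log2 fold change of *alh-4(-)* over WT had a median of -0.12 over the 40 genes (interquartile range -0.19 to 0.04), and a median of 0.07 over all tested genes (-0.18 to 0.28). The point estimate was above 0 for 13 and below 0 for 27 of the 40 genes, while it was above 0 for 9403 and below 0 for 6822 of all tested genes. Only *gpd-4* had a log2 fold change of 0.5 or more in size, so that 97.5% of the 40 genes and 78.1% of all tested genes lay under that size. The 95% limma interval of the fold change lay inside 2-fold in both directions for 38 of the 40 genes (95%), the exceptions being *gpd-4* and *idhb-1*. The same was true of 39.6% of all tested genes and of 61.9% of the 6668 tested genes whose mean FPKM was 30 or more, a level that all 40 genes reached. The median level of those 6668 genes was 108, against 384 for the 40 genes, so levels were not matched. A difference of more than 2-fold was therefore outside the interval for most of these enzymes.

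**Figure D1:**
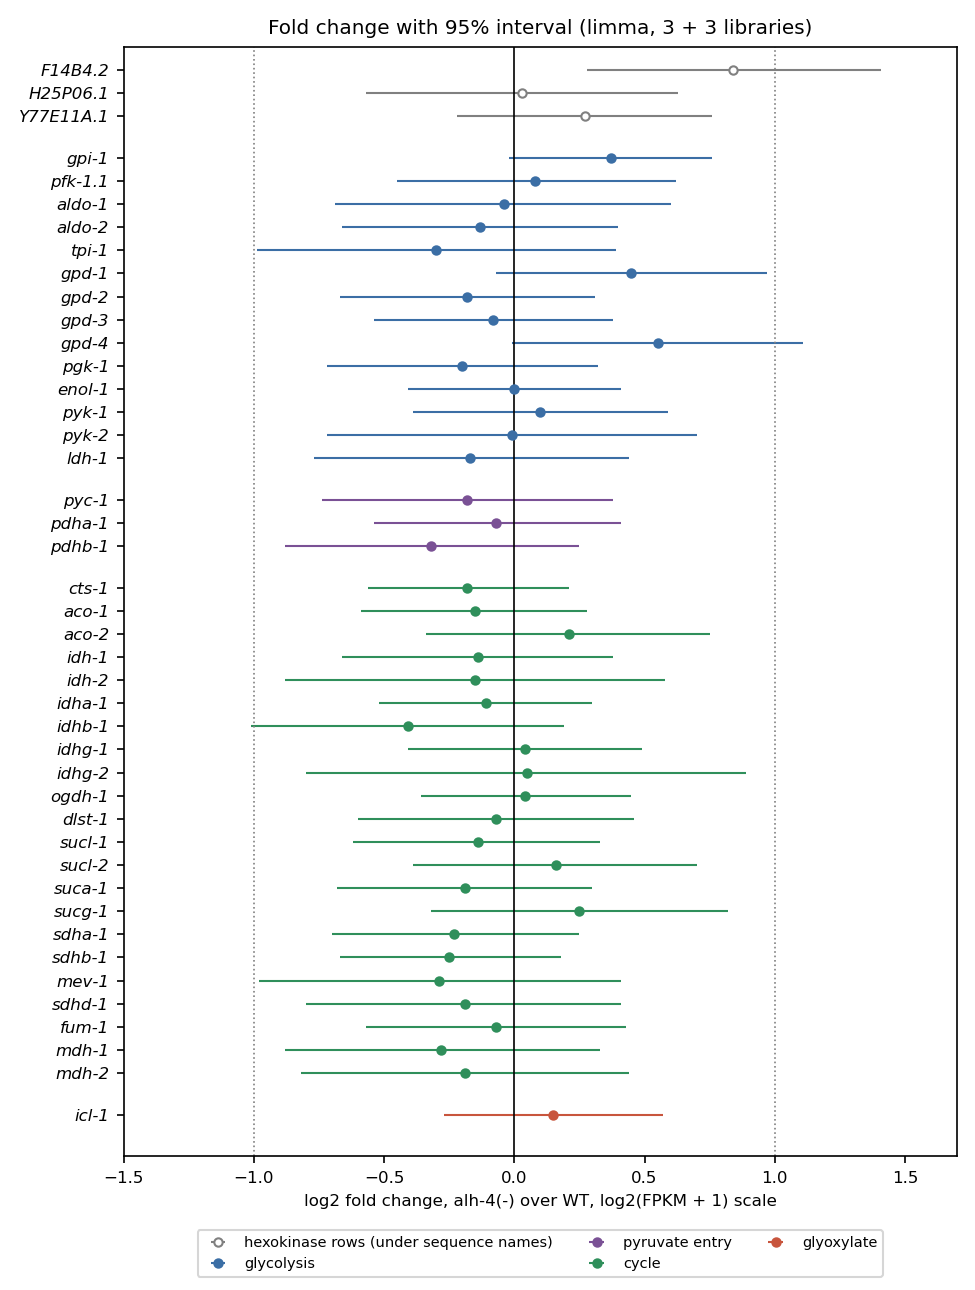
Log2 fold change of *alh-4(-)* over WT on the log2(FPKM + 1) scale for the 40 genes and the 3 hexokinase rows. Points are limma estimates from 3 libraries per genotype, lines are 95% intervals, and dotted lines mark 2-fold. The interval of *F14B4.2* (0.28 to 1.41) lies above 0, and the intervals of the 40 genes all include 0.

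Hexokinase, which phosphorylates glucose at its entry to the pathway, is encoded by 3 genes that the table lists under sequence names. The RefSeq annotation of WBcel235 pairs F14B4.2 with *hxk-1*, H25P06.1 with *hxk-2* and Y77E11A.1 with *hxk-3*. F14B4.2 had an FPKM of 59.1, 71.8 and 95.6 in WT replicates 1, 2 and 3 and of 120, 148 and 134 in *alh-4(-)* replicates 1, 2 and 3. All *alh-4(-)* libraries lay above all WT libraries, by a ratio of means of 1.78. On the log2 scale the fold change of F14B4.2 was 0.84 (95% interval 0.28 to 1.41, SE 0.24), with a limma p of 0.00956 and a Benjamini-Hochberg adjusted p of 0.596, so that it did not pass the adjusted threshold. Y77E11A.1 had 36.2, 33.2 and 36.7 in WT and 40.5, 46.1 and 41.9 in *alh-4(-)*, again without overlap, with a log2 fold change of 0.27 (95% interval -0.22 to 0.76) and a limma p of 0.231. H25P06.1 had 30.3 ± 6.15 in WT and 30.9 ± 4.74 in *alh-4(-)* (FPKM, SD, n = 3), and its libraries overlapped. The *alh-4(-)* libraries were thus all the higher in 2 of the 3 rows, where 5.97% of all tested genes had this pattern. Summed over the 3 rows, the FPKM was 133, 131 and 160 in WT and 197, 222 and 205 in *alh-4(-)*. F14B4.2 made up 44.6%, 55.0% and 59.6% of the summed FPKM of the 3 rows in WT and 61.0%, 66.6% and 65.7% in *alh-4(-)* (two-sided exact permutation p = 0.1, the smallest that 3 libraries against 3 allow). This share holds the F14B4.2 values above and is not separate support.

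Among the 14 glycolysis genes the median log2 fold change was -0.02, with estimates from -0.30 for *tpi-1* to 0.55 for *gpd-4*. The groups did not overlap in 3 of them (21.4%, against 9.21% of all tested genes), and in each the *alh-4(-)* libraries were the higher (against 5.97%). *gpi-1* encodes glucose-6-phosphate isomerase, which interconverts glucose 6-phosphate and fructose 6-phosphate, and lies on chromosome I from 13576148 to 13581611 in the WBcel235 annotation. Its FPKM was 2730, 2411 and 2668 in WT replicates 1, 2 and 3 and 3171, 3503 and 3395 in *alh-4(-)* replicates 1, 2 and 3. The spread within each genotype (SD 169 in both) was small beside the gap between the means of 2603 and 3356. The log2 fold change of *gpi-1* was 0.37 (95% interval -0.02 to 0.76, SE 0.16), with a limma p of 0.0602 and a Benjamini-Hochberg adjusted p of 1. *gpi-1* was the most abundant of the 14 transcripts in every library and supplied 20.7% to 22.1% of their summed FPKM in WT and 25.3% to 28.0% in *alh-4(-)* libraries (two-sided exact permutation p = 0.1). This share holds the *gpi-1* values above and is not separate support. The sum over the 14 genes was 12165 ± 577 in WT and 12685 ± 278 in *alh-4(-)* (FPKM, SD, n = 3), and without *gpi-1* it was 9562 ± 434 and 9328 ± 309. The ranges of both sums overlapped between the genotypes.

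**Figure D2:**
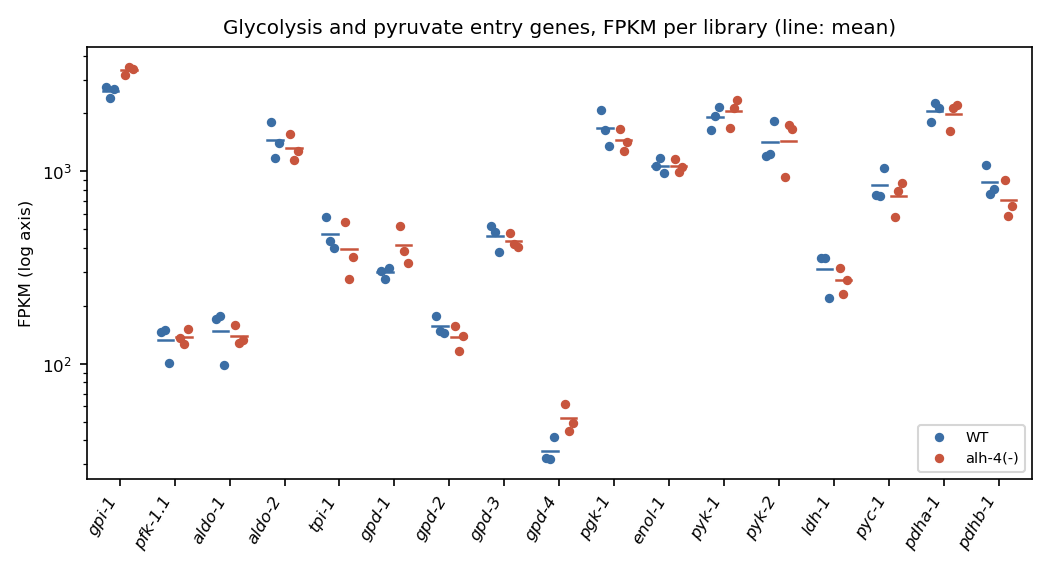
FPKM (log axis) of the 14 glycolysis genes and the 3 pyruvate entry genes. Each point is a library, WT in blue and *alh-4(-)* in red with replicates 1, 2 and 3 from left to right, and the lines are means of 3. The colours do not overlap for *gpi-1*, *gpd-1* and *gpd-4*, and overlap for the other 14.

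Glyceraldehyde-3-phosphate dehydrogenase, the enzyme that reduces NAD+ in glycolysis, is encoded by *gpd-1*, *gpd-2*, *gpd-3* and *gpd-4*. Work in worms has described *gpd-1* and *gpd-4* as genes of a minor isoenzyme and *gpd-2* and *gpd-3* as genes of the major isoenzyme. In the WBcel235 annotation *gpd-1* and *gpd-4* lie apart on chromosome II (10394129 to 10395349 and 10171268 to 10172498, both on the plus strand). *gpd-3* and *gpd-2* are neighbours on the minus strand of chromosome X (3112091 to 3113341 and 3113443 to 3114689), with 101 bases between them. The members of each pair are close in sequence, and how the authors' counting divided shared reads is not known, so the split within a pair is uncertain.

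The FPKM of *gpd-1* was 305, 277 and 313 in WT replicates 1, 2 and 3 and 523, 385 and 335 in *alh-4(-)* replicates 1, 2 and 3. The *alh-4(-)* libraries were all above the WT libraries, but replicate 3 of the mutant lay close to WT. *gpd-4* was listed at 32.3, 31.8 and 41.4 in WT and at 62.0, 44.7 and 49.4 in *alh-4(-)*. Here too the groups did not overlap, and replicate 1 of *alh-4(-)* was again the highest. The log2 fold changes were 0.45 for *gpd-1* (95% interval -0.07 to 0.97, limma p of 0.0789) and 0.55 for *gpd-4* (95% interval -0.01 to 1.11, limma p of 0.0549, the lowest of the 40 genes), both with a Benjamini-Hochberg adjusted p of 1. With both replicate 1 libraries left out they were 0.28 for *gpd-1* (limma p of 0.221) and 0.36 for *gpd-4* (limma p of 0.201). The array quality weight of *alh-4(-)* replicate 1, 0.244, was the lowest of all libraries. *gpd-2* had 177, 148 and 144 in WT and 158, 117 and 140 in *alh-4(-)*, and *gpd-3* had 518, 484 and 381 in WT and 477, 418 and 404 in *alh-4(-)*. For both neighbours on chromosome X the genotypes overlapped, and the *alh-4(-)* mean was the lower, with log2 fold changes of -0.18 and -0.08.

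Summed over each pair, *gpd-1* and *gpd-4* had an FPKM of 337, 309 and 355 in WT and 585, 430 and 384 in *alh-4(-)*, while *gpd-2* and *gpd-3* had 694, 632 and 524 in WT and 635, 536 and 545 in *alh-4(-)*. The share of *gpd-1* and *gpd-4* in all 4 genes was therefore 32.7%, 32.8% and 40.3% in WT and 48.0%, 44.5% and 41.4% in *alh-4(-)* libraries. The shares did not overlap, with WT replicate 3 and *alh-4(-)* replicate 3 next to each other, and the two-sided exact permutation p was 0.1. They hold the *gpd-1* and *gpd-4* values above and are not separate support. The summed level of the 4 genes was 951 ± 76.6 in WT and 1038 ± 158 in *alh-4(-)* (FPKM, SD, n = 3), a difference within the spread of the *alh-4(-)* libraries. The ratio within each pair overlapped between the genotypes, from 6.78 to 9.44 for *gpd-1* over *gpd-4* and from 2.65 to 3.57 for *gpd-3* over *gpd-2* across the 6 libraries.

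**Figure D3:**
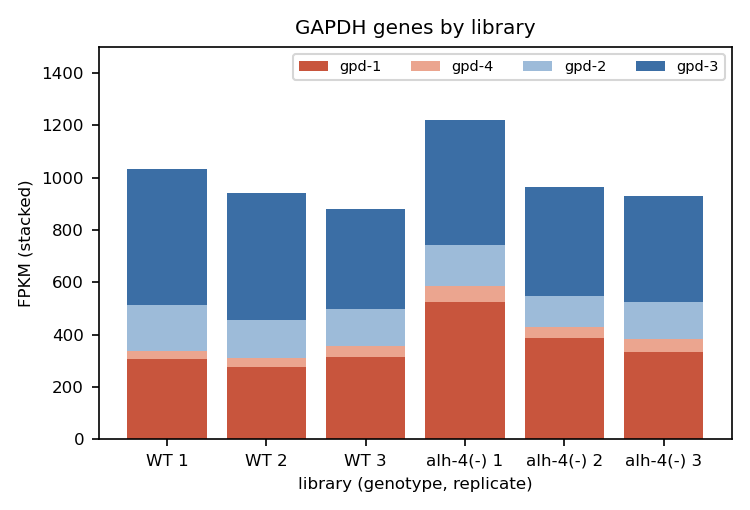
Stacked FPKM of the glyceraldehyde-3-phosphate dehydrogenase genes in each library. Red and light red are *gpd-1* and *gpd-4*, and light blue and blue are *gpd-2* and *gpd-3*. The red segments sum to between 309 and 355 in WT and between 384 and 585 in *alh-4(-)* libraries.

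The other 9 glycolysis genes overlapped between the genotypes. *pfk-1.1*, a phosphofructokinase gene of the committed step, had an FPKM of 147, 149 and 101 in WT and of 136, 127 and 151 in *alh-4(-)*. *pfk-1.2*, a further phosphofructokinase gene that is not on the list, had a mean FPKM of 67.4 and a log2 fold change of -0.04. Aldolase, which splits fructose 1,6-bisphosphate, was mostly *aldo-2*, with 1795, 1179 and 1406 in WT and 1559, 1146 and 1270 in *alh-4(-)*. *aldo-2* supplied 90.6% ± 3.3 of the aldolase FPKM in WT and 90.4% ± 0.395 in *alh-4(-)* (SD, n = 3, two-sided exact permutation p = 1), and *aldo-1* the rest. *tpi-1*, triosephosphate isomerase, had 578, 437 and 398 in WT and 544, 275 and 360 in *alh-4(-)*, with replicate 1 highest in both genotypes. *pgk-1*, phosphoglycerate kinase, had 2078, 1637 and 1356 in WT and 1665, 1281 and 1428 in *alh-4(-)*.

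The last steps were close to equal. *enol-1*, enolase, had an FPKM of 1069 ± 97.0 in WT and 1070 ± 87.1 in *alh-4(-)* (SD, n = 3), and the 95% interval of its log2 fold change ran from -0.41 to 0.41. Pyruvate kinase was divided between *pyk-1*, with 1635, 1950 and 2151 in WT and 1686, 2123 and 2356 in *alh-4(-)*, and *pyk-2*, with 1202, 1235 and 1818 in WT and 933, 1733 and 1651 in *alh-4(-)*. Both pyruvate kinase genes had their lowest value of each genotype in replicate 1, and *pyk-1* supplied 57.7% ± 3.51 of the pyruvate kinase FPKM in WT and 59.4% ± 4.69 in *alh-4(-)* (SD, n = 3, two-sided exact permutation p = 0.6). *ldh-1*, lactate dehydrogenase, had 354, 355 and 220 in WT and 314, 230 and 272 in *alh-4(-)*, with WT replicate 3 the lowest of the 6 libraries.

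All 3 pyruvate entry genes had a log2 fold change below 0, with a median of -0.18, and in all 3 the genotypes overlapped. *pyc-1*, pyruvate carboxylase, had an FPKM of 750, 742 and 1042 in WT and of 580, 791 and 866 in *alh-4(-)*. *pdha-1* and *pdhb-1* encode the alpha and beta subunits of the E1 enzyme of pyruvate dehydrogenase. *pdha-1* had 1810, 2274 and 2126 in WT and 1624, 2130 and 2205 in *alh-4(-)*, lowest in replicate 1 of each genotype. *pdhb-1* had 1075, 765 and 809 in WT and 900, 583 and 657 in *alh-4(-)*, highest in replicate 1 of each genotype. The ratio of *pdha-1* to *pdhb-1* was thus 1.68 and 1.80 in the replicate 1 libraries and between 2.63 and 3.65 in the others, and it did not separate the genotypes (two-sided exact permutation p = 0.5). The log2 fold change was -0.07 for *pdha-1* (95% interval -0.54 to 0.41) and -0.32 for *pdhb-1* (95% interval -0.88 to 0.25).

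The 22 cycle genes had a median log2 fold change of -0.15, with estimates from -0.41 for *idhb-1* to 0.25 for *sucg-1* and 16 of the 22 below 0. Their summed FPKM was 8936, 7959 and 8611 in WT and 7866, 7580 and 8534 in *alh-4(-)*, a difference in the means of -5.99%, with overlapping libraries. *cts-1* encodes citrate synthase, which joins acetyl-CoA to oxaloacetate at the start of the cycle. Its FPKM was 616, 656 and 660 in WT and 542, 577 and 590 in *alh-4(-)*, so that the *alh-4(-)* libraries were all below the WT libraries, with an SD of 24.3 in WT and 24.8 in *alh-4(-)*. The difference was small, with a log2 fold change of -0.18 (95% interval -0.56 to 0.21), a limma p of 0.311 and a Benjamini-Hochberg adjusted p of 1. limma draws the spread of each gene towards that of genes of like level. On the log2 scale the median residual SD was 0.24 over the 40 genes and 0.43 over all tested genes. It was 0.34 over the 6668 tested genes whose mean FPKM was 30 or more.

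**Figure D4:**
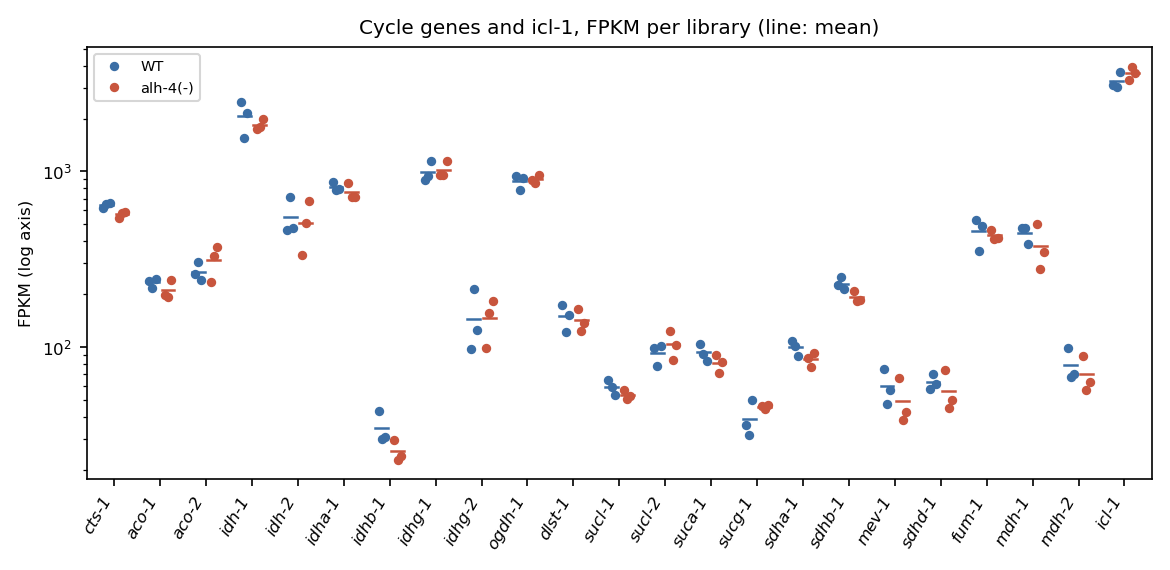
FPKM (log axis) of the 22 cycle genes and *icl-1*. Each point is a library, WT in blue and *alh-4(-)* in red with replicates 1, 2 and 3 from left to right, and the lines are means of 3. The red points lie below the blue for *cts-1*, *idhb-1* and *sdhb-1*, and the colours overlap for the other 20.

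Aconitase, which converts citrate to isocitrate, is encoded by *aco-1*, the cytosolic form, and *aco-2*, the mitochondrial form. *aco-1* had an FPKM of 239, 217 and 246 in WT and 199, 194 and 240 in *alh-4(-)*, and *aco-2* had 260, 304 and 240 in WT and 236, 332 and 371 in *alh-4(-)*. The log2 fold changes were -0.15 and 0.21, and the genotypes overlapped in both. Isocitrate dehydrogenase is present in NADP-dependent forms, *idh-1* and *idh-2*, and in an NAD-dependent form built of alpha, beta and gamma subunits, which is the form of the cycle itself. *idh-1*, although NADP-dependent, is among the 22 genes listed for the cycle and counts in their summed FPKM. It was the most abundant of the 22, with 2468, 1555 and 2151 in WT and 1733, 1786 and 1999 in *alh-4(-)*. *idh-2* ranged from 463 to 715 in WT and from 336 to 677 in *alh-4(-)*.

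The subunits of the NAD-dependent enzyme differed widely in level. *idhg-1*, a gamma subunit gene, had a mean FPKM of 1007 over the 6 libraries, *idha-1*, the alpha subunit gene, had 789, *idhg-2*, the other gamma subunit gene, had 146, and *idhb-1*, the beta subunit gene, had 30.1, the lowest of all 40 genes. *idhb-1* was listed at 43.2, 30.0 and 30.8 in WT and at 29.6, 22.9 and 24.2 in *alh-4(-)*. The groups did not overlap, but the highest *alh-4(-)* library lay just below the lowest WT library, and replicate 1 was the highest of each genotype. *idhb-1* had a log2 fold change of -0.41 (95% interval -1.01 to 0.19, SE 0.25), with a limma p of 0.149. The ratio of *idha-1* to *idhb-1* was 20.1, 26.3 and 25.9 in WT and 28.9, 31.1 and 29.5 in *alh-4(-)* libraries, without overlap (two-sided exact permutation p = 0.1). This ratio holds the *idhb-1* values above and is not separate support. *idhg-1* had 890, 941 and 1151 in WT and 954, 957 and 1151 in *alh-4(-)*, and *idhg-2* had 97.3, 213 and 125 in WT and 99.6, 157 and 184 in *alh-4(-)*. Both gamma subunit genes overlapped between the genotypes. The ratio of *idhg-1* to *idhg-2* ranged from 4.41 to 9.58 and overlapped between the genotypes.

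*ogdh-1* and *dlst-1* encode the E1 and E2 enzymes of the oxoglutarate dehydrogenase complex. *ogdh-1* had an FPKM of 940, 786 and 918 in WT and 896, 862 and 959 in *alh-4(-)*. *dlst-1* had 174, 122 and 153 in WT and 166, 123 and 137 in *alh-4(-)*, highest in replicate 1 and lowest in replicate 2 of both. Succinyl-CoA ligase forms ATP or GTP, and its genes are *sucl-1* and *sucl-2* for the alpha subunit, *suca-1* for the ADP-specific and *sucg-1* for the GDP-specific beta subunit. Their mean FPKM lay between 42.6 for *sucg-1* and 98.3 for *sucl-2*, which was listed at 99.1, 78.3 and 101 in WT and at 124, 85.0 and 103 in *alh-4(-)*. *sucg-1* was listed at 36.1, 31.7 and 49.8 in WT and at 46.5, 44.6 and 46.9 in *alh-4(-)*, with the *alh-4(-)* libraries inside the WT range. *suca-1* was listed at 105, 91.2 and 83.8 in WT and at 90.9, 71.4 and 82.6 in *alh-4(-)*. The ratio of *suca-1* to *sucg-1* lay between 1.68 and 2.90 in WT and between 1.60 and 1.96 in *alh-4(-)* (two-sided exact permutation p = 0.3).

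Succinate dehydrogenase, which is also complex II of the respiratory chain, has 4 subunit genes among the 40. Their log2 fold changes were all below 0, with limma p-values from 0.214 to 0.472, so that none passed the test. *sdha-2*, a further flavoprotein subunit gene that is not among the 40, had an FPKM of 90.5, 79.0 and 127 in WT and of 101, 111 and 117 in *alh-4(-)*, with a log2 fold change of 0.18. *sdhb-1*, the iron-sulfur subunit gene, had an FPKM of 226, 250 and 214 in WT and 210, 184 and 186 in *alh-4(-)*. The genotypes did not overlap, with *alh-4(-)* replicate 1 next to WT replicate 3. *sdhb-1* had a log2 fold change of -0.25 (95% interval -0.67 to 0.18, SE 0.18), with a limma p of 0.214. *sdha-1*, the flavoprotein subunit gene, had 109, 102 and 88.8 in WT and 86.7, 76.7 and 93.0 in *alh-4(-)*, a log2 fold change of -0.23, with *alh-4(-)* replicate 3 inside the WT range. The membrane anchor genes *mev-1* and *sdhd-1* had log2 fold changes of -0.29 and -0.19, and both overlapped between the genotypes. *mev-1* ranged from 47.8 to 74.7 in WT and from 38.7 to 66.9 in *alh-4(-)*. *sdhd-1* ranged from 58.1 to 70.1 in WT and from 45.1 to 74.4 in *alh-4(-)*. Replicate 1 was the highest *alh-4(-)* library for both genes.

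*fum-1*, fumarase, had an FPKM of 530, 355 and 492 in WT and 466, 414 and 418 in *alh-4(-)*. Malate dehydrogenase, which returns malate to oxaloacetate, is encoded by *mdh-1* and *mdh-2*. *mdh-1* had 475, 478 and 388 in WT and 505, 279 and 349 in *alh-4(-)*, so that the highest and the lowest of the 6 libraries were both *alh-4(-)*. *mdh-2* ranged from 68.1 to 99.5 in WT and from 57.1 to 89.5 in *alh-4(-)*. The *mdh-1* to *mdh-2* ratio lay between 4.78 and 7.01 in the 6 libraries (two-sided exact permutation p = 0.9 between the genotypes).

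*icl-1* encodes the glyoxylate enzyme of the worm, which carries isocitrate lyase and malate synthase in a single protein, and lies on chromosome V from 724332 to 728004 in the WBcel235 annotation. It was the most abundant of the 40 transcripts, with a mean FPKM above that of 99.2% of all tested genes. Its FPKM was 3106, 3027 and 3676 in WT and 3300, 3945 and 3619 in *alh-4(-)*. The means of 3270 ± 354 and 3621 ± 323 (SD, n = 3) differed by about the spread within a genotype, and WT replicate 3 exceeded 2 of the 3 *alh-4(-)* libraries. On the log2 scale the fold change of *icl-1* was 0.15 (95% interval -0.27 to 0.57), with a limma p of 0.432.

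Single libraries stood high or low for many of these genes. WT replicate 1 was the highest of the 6 libraries for 16 of the 40 genes (40.0%), against 12.1% of all tested genes, and *alh-4(-)* replicate 2 was the lowest for 16 of the 40 (40.0%), against 7.41%. Among the 22 cycle genes these counts were 10 and 11. Replicate 1 was the highest of its genotype in both genotypes for 14 of the 40 genes (35.0%), *pdhb-1*, *tpi-1*, *mev-1* and *idhb-1* among them, and for 8.65% of all tested genes. Replicate 1 was the lowest in both genotypes for 7 of the 40 (17.5%), *pyk-1*, *pyk-2* and *pdha-1* among them, and for 39.6% of all tested genes. Among the 6668 tested genes whose mean FPKM was 30 or more, replicate 1 was the highest in both genotypes for 12.0% and the lowest for 37.1%. The replicate 1 libraries, in which the fewest genes were above 0, therefore stood high for many of the 40 transcripts. They stood low for genes at large and for genes whose mean FPKM was 30 or more. The median level of the latter, 108, was below the 384 of the 40 genes, so levels were not matched. The part of this difference between libraries in the fold changes was not tested beyond leaving the libraries out.

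Markers of cell types varied between the same libraries. WT replicate 3 was the lowest of the 6 libraries for 5 of the 14 glycolysis genes (35.7%, against 7.73% of all tested genes), namely *pfk-1.1*, *aldo-1*, *gpd-3*, *enol-1* and *ldh-1*. In the same library the summed FPKM of 4 body wall muscle markers was 7997, against 9992 to 13458 in the other libraries, and that of 3 pharynx markers was 377, against 515 to 1787. The summed markers overlapped between the genotypes for intestine (6266 to 9062 in WT and 6014 to 9358 in *alh-4(-)*), germline (9815 to 16770 and 12507 to 14520) and hypodermis (466 to 1130 and 428 to 540). *asp-1* supplied most of the intestine sum (8183 of 8996 in WT replicate 1) and *glh-1* most of the germline sum (10459 of 13048). *asp-1* and *ifb-2* were highest in replicate 1 of each genotype, whereas *ges-1* and *elt-2* were lowest there. All 4 hypodermis markers had a log2 fold change below 0, with a median of -0.74 against 0.07 over all tested genes. None of the 26 markers that could be tested had an unadjusted limma p under 0.05. The part of tissue composition in the values of the enzyme genes was not tested.

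**Figure D5:**
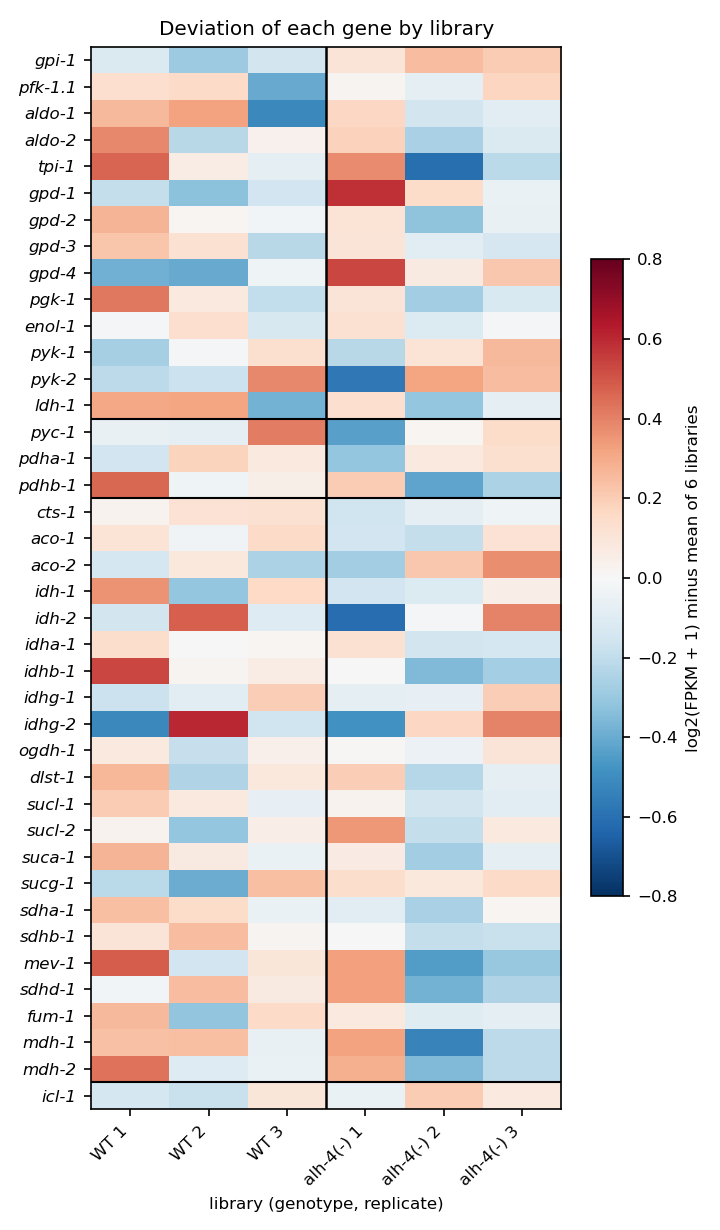
Deviation of each of the 40 genes from its mean over the 6 libraries, as log2(FPKM + 1). Rows run in pathway order with lines between glycolysis, pyruvate entry, the cycle and *icl-1*, and columns are libraries with a line between the genotypes. Red is above and blue below the mean of the gene, with red frequent in WT replicate 1 (highest for 16 of 40 genes) and blue in *alh-4(-)* replicate 2 (lowest for 16 of 40 genes).

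Of 30 further genes of these and neighbouring pathways, none had an unadjusted limma p under 0.05 or an adjusted p under 0.05, and the median log2 fold change was 0.03 (range -0.20 to 0.47). The groups did not overlap in 3 of the 30 (10.0%), *pdp-1*, T25B9.9 and T22F3.3, which is close to the 9.21% of all tested genes, and all 3 were higher in *alh-4(-)*. *pdp-1*, a pyruvate dehydrogenase phosphatase gene, ranged from 16.0 to 17.8 in WT and from 18.1 to 24.4 in *alh-4(-)*, and T25B9.9 from 267 to 298 and from 299 to 315. T22F3.3, which RefSeq names *pygl-1* and which encodes glycogen phosphorylase, had an FPKM of 117, 97.7 and 104 in WT and of 155, 124 and 131 in *alh-4(-)*, a log2 fold change of 0.36 with a limma p of 0.114. *pck-2*, a phosphoenolpyruvate carboxykinase gene that acts with the reverse of glycolysis in making glucose, had 7372 ± 750 in WT and 7427 ± 200 in *alh-4(-)* (FPKM, SD, n = 3), with a 95% interval of the log2 fold change from -0.39 to 0.42. *fbp-1*, which encodes fructose-1,6-bisphosphatase, had 224 ± 28.0 and 201 ± 22.1.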

How the data were processed

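The authors prepared Smart-seq2 libraries from lysates of whole worms, sequenced them on an Illumina NextSeq 500 and mapped the reads to ce10 with its iGenome annotation. The submitters' processing notes name bcl2fastq 2.19, Trimmomatic 0.36, HISAT2 2.1.0, SAMtools 1.3 and StringTie 1.3.3, and list mm10 beside ce10. The deposited values are FPKM per gene and library, with replicates not pooled. In genes of a single exon, low values scaled by length did not fall on multiples of a common unit, so that sequencing depth is unknown and no interval that needs it is given.

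Values were transformed to log2(FPKM + 1). The 16225 genes whose mean FPKM was 1 or more were fitted with limma 3.58.1 under R 4.3.3, using lmFit and a trended eBayes, WT against *alh-4(-)*, two-sided, and p-values were adjusted over all of them by the Benjamini-Hochberg method. On this scale the fold change of a weakly expressed gene is understated. The negative binomial test that the study names takes counts and was not run. Shares, ratios and single values were compared by two-sided exact permutation tests in Python 3.11.15, for which 0.1 is the smallest p that 3 libraries a genotype allow. Where a share or ratio holds a gene described for its separation between the genotypes, a permutation p of 0.1 is not separate support. P-values measure the spread between these biological replicates. Libraries were assigned to genotypes by their titles, and all columns of the table were used.

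The members and lists were chosen with earlier results of these data known. Among the 40 genes, values in every library were given for those with an unadjusted p under 0.05 or without overlap and for the most abundant gene of each step with several genes. They were also given for *icl-1*, for some close paralogs and for further genes, such as those of a step with a single gene. The rest, *aldo-1*, *sucl-1*, *idh-2* and *mdh-2* among them, were described by share, mean or range. *pdp-1*, T25B9.9, T22F3.3, *pck-2*, *fbp-1*, *sdha-2* and *pfk-1.2* were named after their values were seen. Positions come from the Ensembl WBcel235 annotation and were not converted from ce10. The names of *mdh-1* and *mdh-2* may be exchanged between annotations. No sequence is shown, since none was used here. Alternatives changed the pseudocount (to 0.1), the filter (none, or a mean FPKM of 10 or more), the scaling (upper quartile or quantile normalization), the trend (none), the library weights (array quality weights) and the design (a replicate block), or left out single libraries or both replicate 1 libraries.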

Additional observations from a re-analysis of the deposited data

How the results depend on the processing

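No gene of the 40 had an adjusted p under 0.05 in limma under any of the 15 alternatives. The number with an unadjusted limma p under 0.05 was 0 in the fit reported, against 4.97% of all tested genes. It was 1, *gpd-4*, with no filter on low values (against 4.07% of all genes tested in that setting). The same count was reached with a mean FPKM of at least 10 (5.62%) and with a replicate block (8.5%), again by *gpd-4*. When single libraries were left out the number ran from 0 to 1 (1, *gpd-4*, without WT replicate 3, against 5.18%). The number was 4 with array quality weights (*gpi-1*, *gpd-4*, *pdhb-1* and *aco-2*), a setting in which 14.6% of all tested genes had such a p. Same-numbered libraries of the 2 genotypes deviated from their genotype means with correlations of 0.314, 0.278 and 0.00487. Replicate 1 was the lowest in both genotypes for 39.6% of all tested genes, so the replicate 1 libraries shared some variation. The labels do not say whether the numbers pair the libraries, and the fit reported left them unpaired. With the replicate block *gpd-4* had an unadjusted limma p of 0.0472 and an adjusted p of 0.581. The log2 fold change ranged over the alternatives from 0.29 to 0.44 for *gpi-1*, 0.25 to 0.59 for *gpd-1*, 0.36 to 0.67 for *gpd-4*, -0.26 to -0.14 for *cts-1*, -0.52 to -0.25 for *idhb-1*, -0.34 to -0.19 for *sdhb-1* and 0.07 to 0.24 for *icl-1*. For F14B4.2 it ranged from 0.68 to 1.03, with an unadjusted p under 0.05 in all 15 and an adjusted p from 0.158 to 1. The sign changed under at least 1 alternative in 15 of the 40 genes, none with a log2 fold change over 0.15 in size. The median over the 40 genes lay between -0.20 and -0.05, and that over all tested genes between -0.01 and 0.24, highest without *alh-4(-)* replicate 1. Depth is unknown.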
